A study of Mus musculus with 42 samples.

Results

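The 5 genes described here, *Trabd2b*, *Retreg1*, *Misp3*, *Hspb8* and *Ptgfr*, belong to a short list of laterality genes that the study drew from these same libraries by comparing right and left between clusters of embryos. The values of right over left that chose them are therefore given as a description, without a test. All 5 were found by symbol among the 56953 genes of the count table, and all 5 passed the filter on low counts that 26335 genes passed over the 42 libraries. In wild types, the first 4 were on average higher on the left and *Ptgfr* on the right. The study grouped the embryos by clusters that the sample labels do not hold, so that the groups here are those of genotype and looping.

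The field of heart progenitors lies behind the heart tube and feeds cells into it while the tube loops. Its left and right sides receive different signals. Cilia that beat in the node bias on which side these lie, and a fault in these cilia lets organs form on either side. The genes have unlike functions. *Trabd2b* encodes a membrane metalloprotease that cuts WNT ligands and so lowers WNT signaling. *Retreg1* encodes a receptor on the endoplasmic reticulum that hands parts of it over to autophagy. *Hspb8* encodes a small heat shock protein that works with the co-chaperone BAG3 in autophagy of damaged proteins, and *Ptgfr* the receptor for prostaglandin F. *Misp3* is a little known relative of *Misp*, which encodes an actin-binding protein that positions the mitotic spindle.

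RNA was sequenced from both sides of the heart field of 21 mouse embryos at E8.5i. The groups were 5 wild types (*Ccdc40*+/+; 4 males and 1 female) with rightward looping and littermates of mutants where possible, 11 homozygous mutants (*Ccdc40*lnks/lnks; 6 males and 5 females) with rightward looping and 5 homozygous mutants (3 males and 2 females) with inverted looping. The lnks allele is a point mutation in a gene needed for ciliary motility, is carried by the whole embryo, and was kept in a background that the methods spell C56Bl6J. Head, back, heart tube and the trunk below the second somite had been cut away, and the rest was split along the midline, so that each library holds several tissues and fewer cells of a type cannot be told apart from less RNA per cell. Libraries held 36073684 to 62970327 counts, with a median of 43458644. *Ccdc40* ranged from 15.2 to 26.5 CPM (counts scaled to library size) in wild types and from 8.83 to 14.8 CPM in mutants.

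Of the libraries, those of the mutant 15_5 stood apart. In both, 165 of 15246 genes were over 2 times as high as in every library of the other embryos, against at most 1 gene for any other embryo. Among them were genes used by the uterus and decidua. In a list of 8 such genes that was chosen after the data were seen, 6 were above every other library on both sides, with a summed level of 442 CPM on the left and 561 CPM for its right side against 3.25 to 156 CPM elsewhere. They were the hormone receptors *Pgr* and *Esr1*, the uterine homeobox genes *Hoxa10* and *Hoxa11*, and the steroid enzymes *Cyp11a1* and *Akr1c18*. *Prl8a2* and *Prl3c1*, prolactin family genes of the decidua, lay within the range of the other libraries. *Xist*, which marks female cells, was at 1.21 and 0.891 CPM in this male, within the 0.105 to 2.98 CPM of the other males and far below the 91.5 to 123 CPM of females. Where leaving it out moved a member's value by over 1.5 times, both values are given, and what set it apart was not tested.

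Promoters are shown as the sequence from which the members are transcribed. RefSeq windows of 280 bases, from 250 bases before a start site to 30 bases after it, were at hand in the GRCm38.p6 build for 4 of the 5 members, with 4 start sites for *Retreg1* and none for *Trabd2b*. A set of 4 motifs was searched on both strands. These were CAGACA of SMAD proteins, CTTTGA of TCF/LEF, GAANNTTC as a minimal heat shock element and AGATAA of GATA factors. Matches are in capitals in the 2 windows printed, those of *Hspb8* at chr5:116422835-116423114 and of *Ptgfr* at chr3:151837499-151837778, both on the minus strand. These are the 2 members whose ratios did not overlap between wild types and inverted mutants.
Hspb8: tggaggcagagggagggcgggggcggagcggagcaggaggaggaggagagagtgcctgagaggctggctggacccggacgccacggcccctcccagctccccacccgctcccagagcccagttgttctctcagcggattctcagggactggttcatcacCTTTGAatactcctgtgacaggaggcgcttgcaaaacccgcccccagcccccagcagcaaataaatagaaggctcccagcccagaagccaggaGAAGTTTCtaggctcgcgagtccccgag
Ptgfr: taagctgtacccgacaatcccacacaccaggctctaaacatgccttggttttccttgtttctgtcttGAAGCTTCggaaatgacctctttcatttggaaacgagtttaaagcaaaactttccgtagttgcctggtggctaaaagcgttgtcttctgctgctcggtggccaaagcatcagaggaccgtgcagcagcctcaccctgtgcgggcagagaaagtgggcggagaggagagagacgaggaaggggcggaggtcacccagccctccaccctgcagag

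*Hspb8*, the heat shock protein, held CTTTGA 91 bases before its start and a heat shock element, GAAGTTTC, from base 3 after it. *Ptgfr* held the heat shock element GAAGCTTC 183 bases before its start. Of the starts of *Retreg1*, the most downstream held TTATCT, the GATA motif on the other strand, from base 14 after it, and another held TCAAAG, the TCF/LEF motif on the other strand. The remaining 2 starts and *Misp3* held none of the 4 motifs. Such matches are common, as 19.6% of the 32851 windows of the table held the SMAD motif, 15.2% the TCF/LEF motif, 7.38% the heat shock element and 10.7% the GATA motif. No motif was found in all members that had a window. The windows of *Misp3* and *Hspb8* were rich in G and C, 66.8% and 63.9%, against a median of 52.5% over the table, and that of *Ptgfr* was at 53.9%. The 4 windows of *Retreg1* ran from 39.6% at its most downstream start to 76.4% at its most upstream.

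All members were transcribed at low to moderate levels. Mean levels were 7.06 CPM for *Trabd2b*, 5.62 for *Retreg1*, 5.55 for *Misp3*, 11.02 for *Hspb8* and 5.03 for *Ptgfr*, and counts per library ranged from 38 to 2941. Per kilobase of exon, mean levels ordered the members as *Hspb8* (4.89 CPM per kb), *Misp3* (3.15), *Retreg1* (1.34), *Ptgfr* (0.743) and *Trabd2b* (0.659). At such counts the median counting error of a log2 ratio in one embryo was 0.11 to 0.15, and the 95% counting interval of the ratio left out 0 in 14 of 21 embryos for *Trabd2b*, 17 for *Retreg1*, 19 for *Misp3*, 19 for *Hspb8* and 15 for *Ptgfr*. These intervals cover counting error only. In GRCm39, *Trabd2b* lies on chromosome 4 (114263218 to 114472295, plus strand), *Retreg1* on 15 (25843226 to 25973773, plus), *Misp3* on 8 (84736851 to 84739149, minus), *Hspb8* on 5 (116546409 to 116561084, minus) and *Ptgfr* on 3 (151502139 to 151543267, minus). *Misp3* shares 119 exon bases with the microRNA gene *Mir1199*, which had 0 counts in every library. *Ptgfr* shares 329 exon bases on the other strand with *Gm43618*, which had 0 to 37 counts. Genes of long noncoding RNAs on the other strand, not analysed here, share 224 exon bases with *Hspb8*, 165 with *Trabd2b* and 27 with *Retreg1*. The strand setting of the counting is not given in the sources used here, so that reads of these partners and of the members cannot be told apart with certainty.

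**Figure D1:**
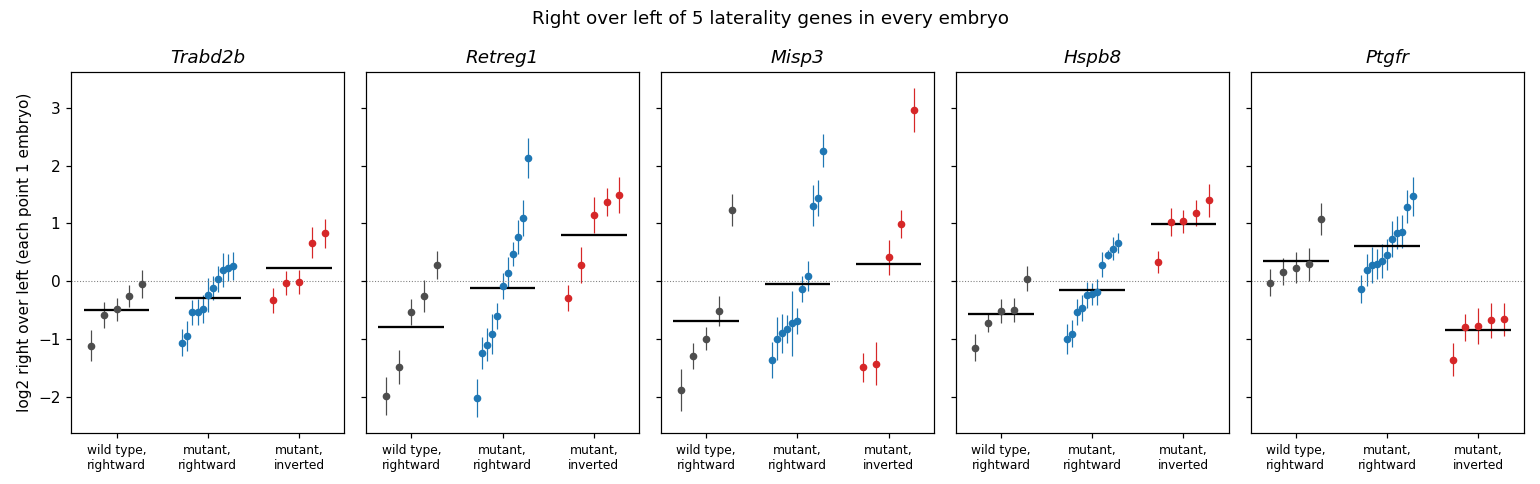
Log2 right over left (y axis) of the 5 genes in each embryo, by group (x axis), sorted by value within a group. Points are embryos, bars their 95% counting intervals and black lines group means; the wild types and the inverted mutants do not overlap for *Hspb8* and *Ptgfr* and overlap for *Trabd2b*, *Retreg1* and *Misp3*.

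The WNT protease gene *Trabd2b* was higher on the left in 5 of 5 wild types, by a small and graded margin. Left and right levels were 8.27 and 5.52 CPM in the wild type 7_1, 9.35 and 7.84 in 8_1, 8.66 and 3.98 in 10_1, 9.18 and 6.57 in 17_7, and 6.80 and 6.56 in 22_4. The last embryo was nearly even, with a log2 ratio of -0.05, and the widest difference was -1.11 in 10_1. Fitted over the 5 embryos by edgeR, right over left was -0.50 ± 0.17 (log2, SE), which is 1.42 times higher on the left.

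In the 11 mutants with rightward looping, *Trabd2b* ranged from 3.98 to 11.6 CPM on the left (median 8.05) and from 3.37 to 8.28 CPM on the right (median 6.53). In 7 embryos the left was higher and in 4 the right, with log2 ratios from -1.06 in 17_1 to 0.27 in 32_3. The 4 on the right were 15_5, 19_4, 23_3 and 32_3, and their ratios were all small, 0.04 to 0.27. A fit over the 11 gave -0.29 ± 0.13. In the mutants with inverted looping, left and right were 6.42 and 6.35 CPM in 2_7, 9.40 and 9.19 in 4_6, 4.60 and 8.22 in 10_3, 9.27 and 7.36 in 18_2, and 4.46 and 7.09 in 32_2. Only 2 of these 5 were higher on the right, 2 were even within counting error and 18_2 stayed on the left at -0.33, so that the fitted value of 0.23 ± 0.19 fell to 0.07 without 10_3 and to 0.12 without 32_2 and was 0.36 without 18_2. Over the embryos of this group, the left varied more than the right (SD of log2 CPM 0.52 and 0.20).

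The autophagy receptor gene *Retreg1* had far wider ratios, and these crossed 0 in every group. Wild types had 7.12 CPM on the left and 2.52 on the right in 7_1, 4.47 and 3.74 in 8_1, 8.91 and 2.22 in 10_1, 7.45 and 5.16 in 17_7, and 6.35 and 7.75 in 22_4. The left was over 2 times as high in 7_1 and 10_1, while 22_4 was higher on the right with a log2 ratio of 0.28. The fitted value over the wild types was -0.79 ± 0.33, and -0.49 without 10_1.

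In the mutants with rightward looping, *Retreg1* ranged from 1.81 to 9.40 CPM on the left (median 6.99) and from 2.09 to 9.94 CPM on the right (median 6.04). The log2 ratio ran from -2.01 in 1_6 to 2.13 in 32_3, a range wider than that of all other groups for this gene. The left was higher in 6 embryos and the right in 5, and the counting interval left out 0 in 9 of the 11, so that the fitted mean of -0.14 ± 0.32 describes few of the embryos and moved between -0.34 without 32_3 and 0.05 without 1_6. Embryos 1_6, 17_1, 19_6 and 2_2 were at -0.91 or below, whereas 3_7, 19_4 and 32_3 were at 0.77 or above.

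Among the mutants with inverted looping, *Retreg1* was at 5.79 CPM on the left and 4.71 on the right in 2_7, 3.82 and 4.64 in 4_6, 2.51 and 7.12 in 10_3, 4.48 and 11.7 in 18_2, and 2.80 and 6.27 in 32_2. The right was over 2 times as high in 10_3, 18_2 and 32_2. The other two had small ratios, -0.29 in 2_7 and 0.28 in 4_6. The fitted value was 0.81 ± 0.27, 1.76 times higher on the right.

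*Misp3*, the relative of the spindle gene *Misp*, varied most. In wild types it was at 11.1 CPM on the left and 4.53 on the right in 7_1, 3.19 and 7.56 in 8_1, 6.96 and 1.86 in 10_1, 11.9 and 5.98 in 17_7, and 7.17 and 5.02 in 22_4. The only female wild type, 8_1, was opposite to the other 4, with a log2 ratio of 1.23 against -1.88 to -0.51. Their fitted ratio was -0.73 ± 0.41, with -1.17 when 8_1 and -0.43 when 10_1 was left out.

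The mutants with rightward looping fell on both sides for *Misp3*, from 1.42 to 9.12 CPM on the left (median 4.84) and from 0.837 to 12.4 CPM on the right (median 5.32). Their log2 ratios ran from -1.36 to 2.25, with 7 embryos higher on the left. Embryos 3_7, 15_5 and 32_3 were at 1.31 or above, 18_1 and 19_4 were even within counting error, and the others lay between -1.36 and -0.69. The fitted mean was -0.08 ± 0.32, and it was -0.21 without 15_5 and moved between -0.30 without 32_3 and 0.06 without 19_6.

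In the mutants with inverted looping, *Misp3* was at 7.78 CPM on the left and 2.75 on the right in 2_7, 5.84 and 2.15 in 4_6, 1.44 and 11.5 in 10_3, 5.26 and 10.5 in 18_2, and 3.55 and 4.74 in 32_2. Embryos 2_7 and 4_6 were left sided, at -1.49 and -1.42, within the range of wild types, and 10_3 had the highest ratio of all 21 embryos, 2.96. The fitted value of 0.25 ± 0.63 turned to -0.36 without 10_3 and was 0.75 without 2_7.

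*Hspb8*, the small heat shock gene, had 1 direction in the whole inverted group. Wild types were at 8.82 CPM on the left and 6.22 on the right in 7_1, 9.23 and 6.47 in 8_1, 11.8 and 5.31 in 10_1, 15.8 and 9.63 in 17_7, and 8.01 and 8.28 in 22_4. The left was higher in 4 of 5, and 22_4 was even within counting error. The fitted value was -0.57 ± 0.17. The mutants with inverted looping were at 7.02 CPM on the left and 8.88 on the right in 2_7, 3.16 and 8.41 in 4_6, 5.24 and 11.9 in 10_3, 6.94 and 14.3 in 18_2, and 4.98 and 10.1 in 32_2. The right was higher in 5 of 5, by log2 ratios of 0.34 to 1.40, and the counting interval left out 0 in each. The fitted value was 1.00 ± 0.16, 2.00 times higher on the right.

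In the mutants with rightward looping, *Hspb8* ranged from 6.95 to 51.5 CPM on the left (median 9.42) and from 3.72 to 70.8 CPM on the right (median 7.08). The highest values on both sides were those of 15_5, and without it the ranges were 6.95 to 11.5 CPM and 3.72 to 15.0 CPM. Log2 ratios ran from -0.997 in 2_2 to 0.65 in 23_3, with 7 embryos higher on the left and 4 on the right. The 4 on the right were again 15_5, 19_4, 23_3 and 32_3, as for *Trabd2b*. The fitted mean was -0.14 ± 0.15, -0.20 without 15_5, -0.21 without 23_3 and -0.05 without 2_2 or 17_1.

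*Ptgfr*, the prostaglandin receptor gene, was the one member on the right. In wild types it was at 5.62 CPM on the left and 6.32 on the right in 7_1, 3.35 and 7.11 in 8_1, 5 and 5.89 in 10_1, 5.66 and 5.58 in 17_7, and 4.25 and 5.22 in 22_4. The ratio in 8_1 was 1.08, and the other 4 lay between -0.02 and 0.29. The fitted value was 0.34 ± 0.18 and 0.16 without 8_1.

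The right-sided ratios of *Ptgfr* ran higher in some mutants with rightward looping than in any wild type. They ranged from 2.42 to 6.44 CPM on the left (median 3.72) and from 4.46 to 6.79 CPM on the right (median 5.89). The right was higher in 10 of 11, by ratios of up to 1.47, and 19_4 alone was below 0 at -0.13. The fit gave 0.60 ± 0.14. The difference from wild types was not tested. It was not itself the contrast that chose the gene, but the study's heterotaxy cluster lies within the mutants with rightward looping and all wild types lie in the cluster it was compared with, so that it holds much of that contrast.

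In the mutants with inverted looping, *Ptgfr* was higher on the left in 5 of 5. Left and right were 6.64 and 3.83 CPM in 2_7, 6.72 and 4.25 in 4_6, 5.42 and 3.39 in 10_3, 8.47 and 3.28 in 18_2, and 5.48 and 3.19 in 32_2. Ratios lay between -1.36 and -0.66, with a fitted value of -0.85 ± 0.14 (1.80 times higher on the left). The right varied little within groups, with an SD of log2 CPM of 0.20 over the 21 embryos against 0.35 on the left.

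**Figure D2:**
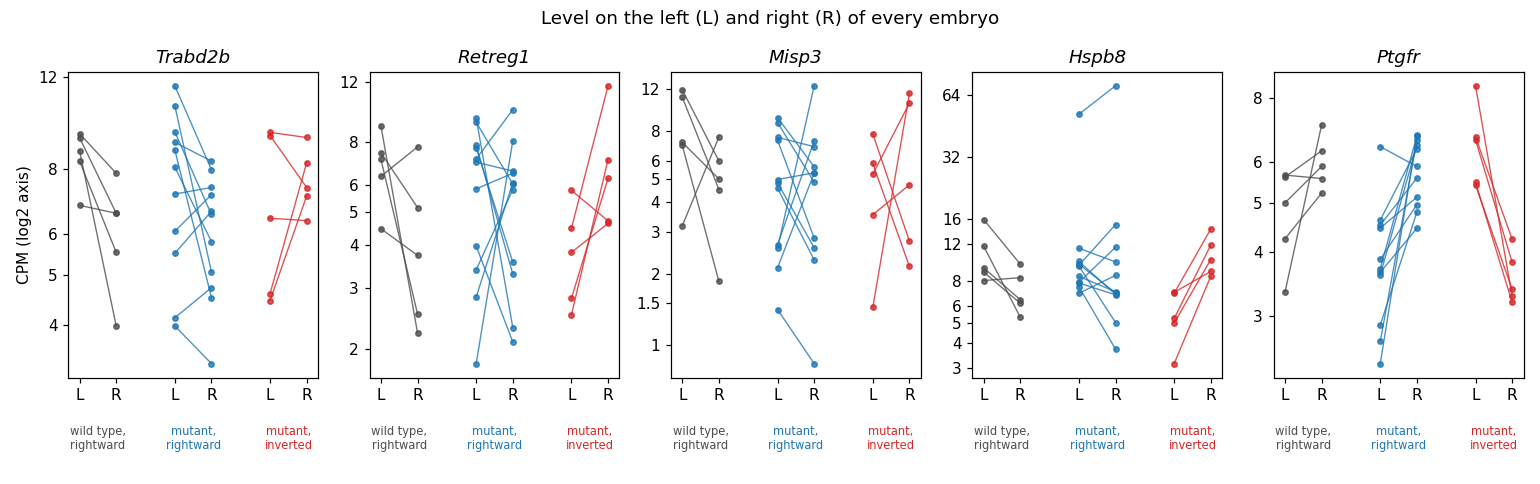
CPM (y axis, log2) on the left (L) and right (R) of each embryo (x axis, by group), with both sides of an embryo joined by a line. The lines of inverted mutants all rise for *Hspb8* and all fall for *Ptgfr*, lines cross for *Retreg1* and *Misp3* in every group, and both sides of embryo 15_5 stand at 51.5 and 70.8 CPM for *Hspb8*.

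The log2 ratios of wild types and inverted mutants did not overlap for 2 of the 5 members, *Hspb8* and *Ptgfr*. Over all genes kept, 542 of 26335 (2.06%) did not overlap in either direction, and nothing is read from this count since the rule used this contrast. For *Trabd2b*, 18_2 lay within the range of wild types and 2_7 and 4_6 just above it. For *Retreg1*, 2_7 and 4_6 did, and for *Misp3* all inverted mutants but 10_3 did.

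The members also differed in the spread of the ratio within groups. The study's clusters divide the mutants with rightward looping, and the members were chosen between these clusters, so that this spread still holds the contrast that chose them and is a description only. Its SD was 1.36 for *Misp3* and 1.06 for *Retreg1*, larger than that of 98.7% and 97.7% of the 15246 genes with a mean over 1 CPM, whose median SD was 0.23. It was 0.51 for *Hspb8*, 0.46 for *Trabd2b* and 0.43 for *Ptgfr*, still larger than those of 84.9%, 81.0% and 78.9% of these genes.

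**Figure D3:**
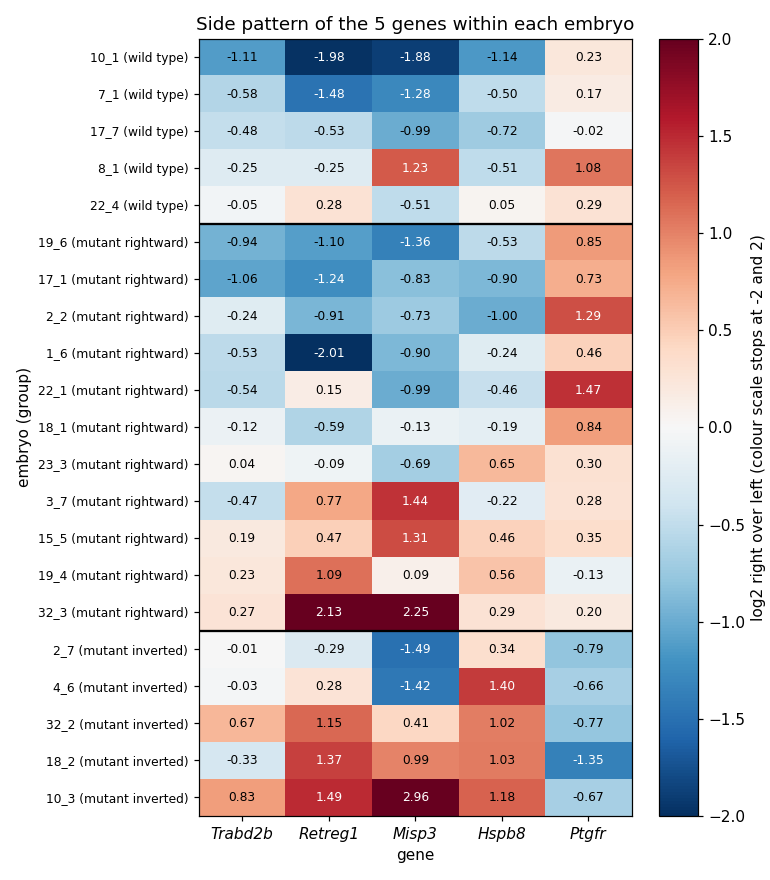
Log2 right over left of the 5 genes (columns) in each embryo (rows), with groups set apart by black lines and embryos sorted within a group by their mean toward the wild-type side. Blue is higher on the left and red higher on the right; 5 mutants with rightward looping have the full pattern of blue with a red *Ptgfr*, and 10_3 and 32_2 among the inverted mutants have the full opposite.

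The signs of the members were also read by embryo. The members were chosen for ratios that follow clusters of embryos, so that like signs within an embryo come in part from the choice, and the counts are a description only. Counted by sign, all 5 members were on their wild-type side in 2 of 5 wild types, 4 members in 2 and 3 members in 1 (22_4). All 5 were on that side in 5 of 11 mutants with rightward looping (1_6, 2_2, 17_1, 18_1 and 19_6). At the other end, 15_5 and 32_3 had 1 member on that side and 19_4 had 0, and in both 15_5 and 32_3 the one was *Ptgfr*. Of the inverted mutants, 10_3 and 32_2 had 0 members on that side, 18_2 had 1, 4_6 had 2 and 2_7 had 3.

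The mean over members of the log2 ratio toward the wild-type side was 1.27 in the wild type 10_1 and 0.10 in 22_4. It reached 0.96 in the mutant 19_6 with rightward looping and -0.95 in 32_3 of the same group. That range held the inverted mutants 2_7 (0.13), 4_6 (-0.18), 32_2 (-0.80) and 18_2 (-0.88), and 10_3 lay beyond it at -1.43.

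Taking out the group means does not take out the study's clusters, which lie within the mutants with rightward looping, so that correlations of the deviations hold in part the contrast that chose the members and nothing is read from them. Over the 21 embryos, Pearson's r of the deviations was 0.76 between *Retreg1* and *Misp3*, 0.68 between *Trabd2b* and *Hspb8*, 0.67 between *Trabd2b* and *Retreg1*, 0.64 between *Retreg1* and *Hspb8*, 0.61 between *Trabd2b* and *Misp3* and 0.42 between *Misp3* and *Hspb8*. *Ptgfr* went weakly the other way, from -0.15 with *Trabd2b* to -0.49 with *Hspb8*. Both libraries of an embryo enter all of its ratios, so that the points share a source.

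Genes with the most similar pattern were sought among 11214 genes with a mean of at least 5 CPM, by the same correlation over 21 embryos. Its values hold in part the contrast that chose the members. The genes named were picked for a high r, so that they are a description only. For *Misp3* they were *Ctsh*, a lysosomal protease, *Reep6* and the apolipoprotein gene *Apoe*, all with r of 0.96. For *Retreg1* they included *Pdpn*, the mucin-like podoplanin (0.92), and *Lrpap1*, a chaperone of lipoprotein receptors (0.89). For *Hspb8* they were the small GTPase gene *Rhoc* (0.89), *Plac8* (0.84) and *Cdc42ep5* (0.83). For *Trabd2b* they were 2200002D01Rik (0.84), *S100a10* (0.83) and the desmosomal cadherin *Dsg2* (0.82). For *Ptgfr* the values were lower, with the uncharacterized *D030007L05Rik* at 0.78, the sphingosine phosphate receptor *S1pr3* at 0.77 and the transcription factor *Foxd1* at 0.76.

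Markers of the tissues that the cut could hold were set beside these ratios. Here and below, r of ratio deviations still holds in part the contrast that chose the members, and is a description only. Visceral endoderm, the extraembryonic layer that lines the yolk sac and secretes apolipoproteins, was read from 6 markers, *Afp*, *Ttr*, *Apoa1*, *Apoa4*, *Apob* and *Trf*. Their summed level ranged from 44.0 to 744 CPM in libraries of wild types, from 20.1 to 703 CPM in those of mutants with rightward looping and from 48.4 to 970 CPM in those of inverted mutants, with 1 of the 6 markers at 0 in some library. The right over left of this sum moved with *Misp3*, with r of 0.95 over deviations in 21 embryos, 0.92 without the 2 embryos farthest out, 0.96 within the 11 mutants with rightward looping and 0.89 within these without their 2 farthest. The signs were equal in 19 of 21 embryos. In 8_1, where *Misp3* was opposite to other wild types, the visceral endoderm sum went from 151 CPM on the left to 543 CPM on the right, and in the inverted mutant 10_3 it was 48.4 and 856 CPM. For *Retreg1*, r was 0.70 over the 21 embryos, 0.62 without the 2 farthest, 0.71 within the 11 mutants and 0.31 within these without their 2 farthest. Its value was 0.57 for *Trabd2b*, 0.30 for *Hspb8* and -0.03 for *Ptgfr*. The part of this tissue in the asymmetry of *Misp3* was not tested.

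**Figure D4:**
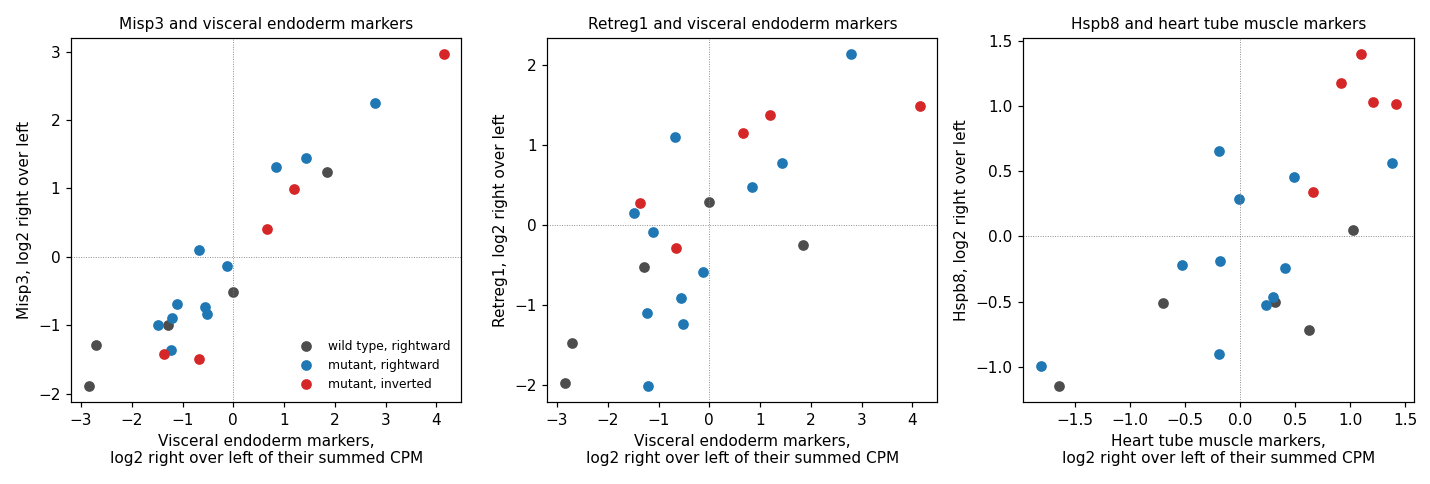
Log2 right over left of *Misp3* and *Retreg1* (y axis) against that of summed visceral endoderm markers (x axis), and of *Hspb8* against heart tube muscle markers, each point being 1 embryo coloured by group. Over deviations from group means, r with the visceral endoderm markers is 0.95 for *Misp3* and 0.70 for *Retreg1*. For *Hspb8* against muscle it is 0.61, or 0.41 without the 2 farthest embryos. These deviations hold in part the contrast that chose the genes.

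Heart tube muscle was read from 12 markers. Their summed level ranged from 987 to 5147 CPM in wild types, from 353 to 6053 CPM in mutants with rightward looping and from 1420 to 5696 CPM in inverted mutants, although the tube itself had been removed. In the inverted mutants, all 5 had more of it on the right, by log2 ratios of 0.66 to 1.42, and edgeR called 10 of the 12 genes higher on the right at an adjusted p under 0.05, where 468 of 22960 genes (2.04%) were called in all. Of these 10, 7 were called without the replicate block of the embryo and 0 in a fit of all 42 libraries, all with the same direction. In wild types 0 of 23182 genes (0%) and in mutants with rightward looping 6 of 22795 (0.0263%) were called. Muscle was not the only tissue with 1 direction in this group. The sums of second heart field (0.13 to 0.67), venous pole (0.04 to 0.55) and endothelium markers (0.14 to 0.32) were also higher on the right in 5 of 5, and that of 7 neural tube markers was higher on the left in 5 of 5 (-1.33 to -0.35), with *Pax6*, *Olig2* and *Nkx6-1* called on the left. Called on the right were *Mef2c* and *Nkx2-5* of 8 second heart field markers, *Tbx5*, *Wnt2* and *Osr1* of 8 venous pole markers and *Hhex* of 8 foregut markers. DESeq2, with 1755 genes called in this group, called 3 second heart field markers on the right and 1 on the left. Venous pole markers had the same counts. It also called 3 endothelium markers on the right and 2 paraxial mesoderm markers on the left. In wild types, with 20 genes called, it called 1 foregut and 1 paraxial mesoderm marker on the right. Tissues near the members in pattern also had mean ratios of opposite sign in wild types and inverted mutants. Paraxial mesoderm was at 0.70 ± 0.92 (log2, SD, n = 5; right higher in 4 of 5) in wild types and -0.77 ± 0.59 (1 of 5) in inverted mutants, the directions of *Ptgfr*. Visceral endoderm was at -0.995 ± 1.97 (2 of 5) and 0.80 ± 2.13 (3 of 5), the directions of the mean ratios of *Misp3* and *Retreg1*, with a spread wider than the means. Foregut endoderm was at -0.12 ± 0.39 (2 of 5) and 0.28 ± 0.30 (4 of 5).

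Over deviations in the 21 embryos, *Hspb8* had an r of 0.61 with the muscle sum. It was 0.41 without the 2 farthest embryos, 0.59 within the 11 mutants with rightward looping and 0.08 within these without their 2 farthest. With the sum of 8 foregut endoderm markers, its r was 0.71, 0.64, 0.78 and 0.75 in the same order. Other lists were as near in the last subset, with 0.85 for second heart field, 0.78 for venous pole and -0.80 for paraxial mesoderm, and these were at 0.51, 0.59 and -0.42 over all embryos. *Ptgfr* had an r of -0.44 with muscle, and its sign turned to 0.27 within the 11 mutants without their 2 farthest. With paraxial mesoderm it was at 0.54, and at 0.50 in that last subset. With second heart field it was at -0.54 and -0.45, with venous pole at -0.20 and -0.70, and with foregut endoderm at -0.28 and -0.64. Foregut endoderm was also the list closest to *Trabd2b* (0.64, and 0.80 in that subset). The part of these tissues in the ratios was not tested.

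Other genes of each pathway were listed with the earlier results of these data known. Their counts are to be read against those over all genes. An unadjusted p under 0.05 was held by 639 of 23182 genes (2.76%) in wild types, 818 of 22795 (3.59%) in mutants with rightward looping and 3468 of 22960 (15.1%) in inverted mutants, and DESeq2 called 20, 32 and 1755 genes. Of 15 receptors and partners of ER-phagy around *Retreg1*, edgeR called 0 in any group, with 0, 0 and 5 at an unadjusted p under 0.05 in wild types, mutants with rightward looping and inverted mutants, and DESeq2 called 0, 0 and 3. The most abundant, *Arl6ip1*, a shaper of the endoplasmic reticulum, was at -0.08 ± 0.05, 0.01 ± 0.02 and 0.04 ± 0.04. *Rtn3* was at -0.05 ± 0.08, -0.04 ± 0.03 and -0.08 ± 0.06, and *Map1lc3b*, the autophagosome protein LC3, at -0.11 ± 0.05, -0.01 ± 0.03 and 0.11 ± 0.04. The widest of the list in inverted mutants, named after its values were seen, was *Tex264*, an ER-phagy receptor, at 0.32 ± 0.11 (right higher in 4 of 5; adjusted p = 0.217 in edgeR).

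The list around *Trabd2b* held 16 genes of WNT ligand processing and secretion and of WNT antagonists. Of these, edgeR called 0 in each group, with 2, 2 and 5 at an unadjusted p under 0.05, and DESeq2 called 1, 0 and 4. The glypican gene *Gpc3* was at -0.06 ± 0.09 in wild types and 0.20 ± 0.08 in inverted mutants, and the retromer gene *Vps35* at -0.11 ± 0.05 and 0.08 ± 0.06. Several genes of the list had wider ratios, of which 3 are named after their values were seen. *Porcn*, whose enzyme adds the lipid that WNT ligands need for secretion, was at 0.41 ± 0.28 in wild types (right higher in 4 of 5) and -0.55 ± 0.13 in inverted mutants (0 of 5; adjusted p = 0.075 in edgeR). The glypican gene *Gpc4* was at -0.35 ± 0.13 (1 of 5) and 0.42 ± 0.19 (4 of 5; adjusted p = 0.348 in edgeR). *Sfrp1*, which encodes a secreted WNT antagonist, was at -0.38 ± 0.08 in wild types (0 of 5; adjusted p of 1 in edgeR) and -0.36 ± 0.22 in inverted mutants. Of 22 tested genes of prostanoid receptors, synthesis and removal around *Ptgfr*, edgeR called 0, with 3, 2 and 5 at an unadjusted p under 0.05, and DESeq2 called 0, 0 and 2. *Ptges3*, a prostaglandin synthase and chaperone partner, was at 0.00 ± 0.06 in wild types and -0.07 ± 0.03 in inverted mutants, and the G protein genes *Gna11* and *Gnaq* at 0.05 ± 0.06 and 0.06 ± 0.06 in inverted mutants. Less abundant genes of the list had wider ratios, of which 2 are named after their values were seen. *Ptger3*, a receptor for prostaglandin E2, was at -1.12 ± 0.46 in wild types (right higher in 1 of 5) and 1.09 ± 0.26 in inverted mutants (5 of 5; adjusted p = 0.0806 in edgeR). *Hpgd*, whose enzyme breaks prostaglandins down, was at -0.75 ± 0.25 (0 of 5) and 1.05 ± 0.28 (5 of 5; adjusted p = 0.117 in edgeR), at means of 0.555 CPM against 2.18 CPM for *Ptger3*. Of 10 spindle and cortical actin genes around *Misp3*, edgeR called 0, with 1, 0 and 3 at an unadjusted p under 0.05, and DESeq2 called 0, 0 and 2. Among these, *Fscn1*, an actin bundler, was at 0.14 ± 0.05 in wild types, and *Rdx* and *Msn*, which tie actin to the membrane, were at 0.00 ± 0.06 and -0.03 ± 0.05. In inverted mutants they were at 0.01 ± 0.05, 0.07 ± 0.04 and -0.01 ± 0.04. *Misp* itself, named after its values were seen, was at -0.21 ± 0.39 in wild types and 0.66 ± 0.16 in inverted mutants, where the right was higher in 5 of 5 embryos and the adjusted p of 0.0941 in edgeR missed the threshold.

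The list of small heat shock proteins and their partners around *Hspb8* differed. Of its 19 tested genes, edgeR called 7 higher on the right in inverted mutants, where 468 of 22960 genes (2.04%) were called in all. In that group 9 had an unadjusted p under 0.05, against 15.1% over all genes. DESeq2 called 8 there, of 1755 genes in all. In wild types and mutants with rightward looping, edgeR and DESeq2 called 0, and 0 and 1 had an unadjusted p under 0.05. The list's median log2 ratio was 0.23 in inverted mutants, against 0.00 over all genes. The 7 were *Hspb1* (1.53 ± 0.20, adjusted p = 0.0101 in edgeR), *Hspb2* (1.70 ± 0.19, 0.00644), *Hspb3* (1.93 ± 0.33, 0.0268), *Hspb7* (1.28 ± 0.14, 0.00564), the crystallin gene *Cryab* (1.23 ± 0.17, 0.0116), the filamin gene *Flnc* (0.44 ± 0.08, 0.0342) and *Synpo2* (1.14 ± 0.18, 0.0209), and all were higher on the right in 5 of 5 embryos. *Hspb7* went from 35.2 ± 13.3 CPM on the left to 83.5 ± 24.5 CPM on the right (SD, n = 5). *Hspb2*, *Hspb3*, *Hspb7*, *Cryab* and *Flnc* are known from striated muscle, and the muscle markers were higher on the same side of the same embryos. The part of muscle in these calls was not tested. The general chaperones of the list were not called, with *Hspa8* at -0.06 ± 0.04, *Dnajb1* at 0.02 ± 0.05 and *Stub1* at 0.00 ± 0.04. *Bag3*, the partner of HSPB8, was at 0.39 ± 0.08 and missed the threshold (adjusted p = 0.0583 in edgeR). Without 32_2, 3 of the 7 remained called, without 4_6 4, and in a fit of all 42 libraries 1, all with the same direction.

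Levels over both sides did not use the contrast that chose the members, and were tested on the summed counts of each embryo with sex as a covariate in edgeR. No member passed. Among all genes, 7 of 27606 (0.0254%) were called between mutants with rightward looping and wild types, all lower in mutants, and 0 (0%) between both mutant groups, where 886 had an unadjusted p under 0.05 and DESeq2 called 0.

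Summed levels of *Trabd2b* were 6.32 to 8.51 CPM in wild types, 3.71 to 9.80 CPM in mutants with rightward looping and 5.85 to 9.26 CPM in inverted mutants, and the first difference was -0.10 (log2, 95% interval -0.45 to 0.24). It was -0.04 without 15_5 and ran from -0.16 without 18_1 to -0.02 without 2_2 when an embryo was left out. Between inverted and rightward mutants, *Trabd2b* differed by 0.08 (-0.26 to 0.41), and by 0.02 without 15_5. *Retreg1* was at 4.07 to 7.13, 3.12 to 8.56 and 4.17 to 8.15 CPM, with a difference of 0.10 (-0.27 to 0.48), which ran from 0.02 without 8_1 or 15_5 to 0.20 without 2_2. Between inverted and rightward mutants it differed by -0.11 (-0.475 to 0.26), and by -0.04 without 15_5. *Misp3* was at 4.39 to 9.14, 1.15 to 7.24 and 4.14 to 7.93 CPM, with a difference of -0.31 (-0.86 to 0.24), which ran from -0.43 without 10_1 to -0.17 without 2_2 and was -0.25 without 15_5. Between inverted and rightward mutants it differed by 0.10 (-0.44 to 0.65), and by 0.05 without 15_5. The lowest *Misp3* was that of 2_2, which also had the lowest sums of visceral endoderm markers, 29.6 CPM (left) and 20.1 CPM (right). This embryo was also lowest on both sides in heart tube muscle (1232 and 353 CPM) and venous pole markers (225 and 189 CPM), and lowest in the summed levels of *Trabd2b* (3.71 CPM) and *Retreg1* (3.12 CPM). Over deviations in the 21 embryos, 2_2 among them, the level of *Misp3* had an r of 0.91 with that of the visceral endoderm markers. It was 0.61 with the venous pole and 0.40 with the heart tube muscle markers.

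*Ptgfr* was the steadiest in level, at 4.79 to 5.97 CPM in wild types, 3.77 to 6.18 CPM in mutants with rightward looping and 4.26 to 5.82 CPM in inverted mutants. The difference of -0.18 (-0.40 to 0.03) between rightward mutants and wild types had an adjusted p of 0.969 in edgeR. Between inverted and rightward mutants it was 0.07 (-0.14 to 0.28). In inverted mutants the left of *Ptgfr* was at 6.55 ± 1.24 CPM and the right at 3.59 ± 0.44 CPM (SD, n = 5), against 4.78 ± 0.98 and 6.02 ± 0.73 CPM in wild types (n = 5), while the sums were 5.04 ± 0.68 and 5.44 ± 0.43 CPM.

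*Hspb8* was at 7.59 to 12.9 CPM in wild types, 5.76 to 61.3 CPM in mutants with rightward looping and 5.52 to 10.7 CPM in inverted mutants. The difference between the first groups was 0.66 (-0.19 to 1.51; adjusted p = 0.969 in edgeR) and turned to -0.08 without 15_5, which alone held the 61.3 CPM. Between inverted and rightward mutants it was -0.68 (-1.52 to 0.17; adjusted p of 1 in edgeR) and -0.08 without 15_5. The right and left levels of *Hspb8* in 15_5 were 4.47 and 3.25 times the highest of the other libraries, whereas its 4 fellow members lay within the range of the others there.

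**Figure D5:**
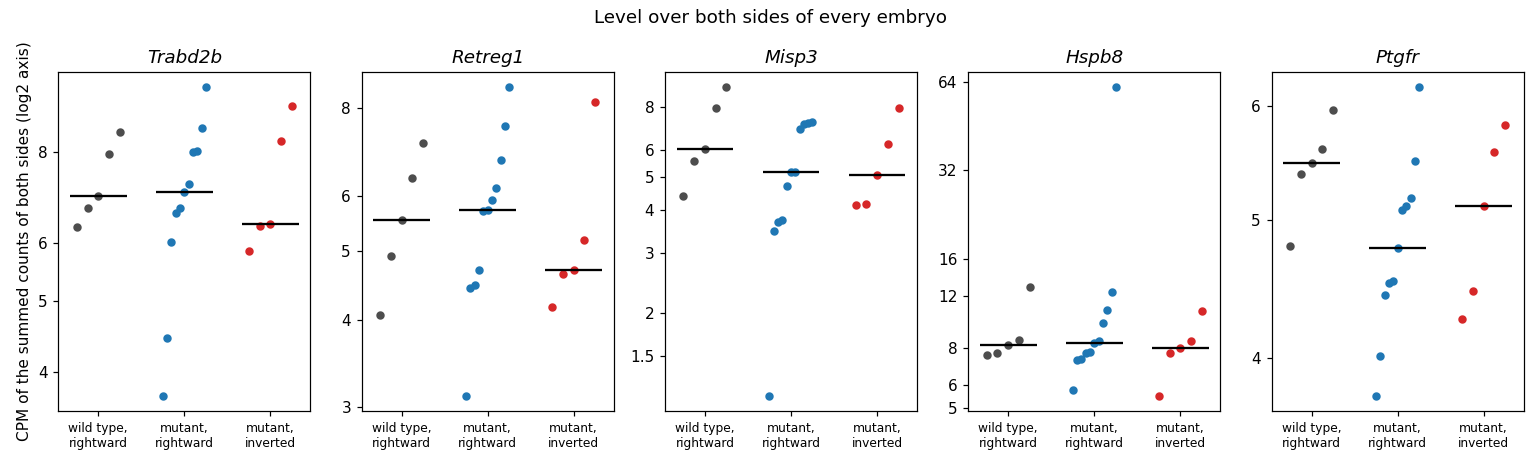
CPM of the summed counts of both sides (y axis, log2) of each embryo by group (x axis), with the group median as a black line. Groups overlap for all 5 genes, and the *Hspb8* level of 61.3 CPM in embryo 15_5 stands alone.

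The difference between sexes was not itself the contrast that chose the members, although the first step of the study's choice, on wild types, also looked at males by themselves. The side-by-sex interaction was tested in edgeR over the 42 libraries with the embryo as a block. No member passed, and 0 of 26335 genes did (0%), with 672 at an unadjusted p under 0.05 and 0 called by DESeq2. The difference of log2 right over left, male minus female, was 0.08 (-0.33 to 0.48) for *Trabd2b*, 0.12 (-0.79 to 1.03) for *Retreg1*, 0.24 (-0.96 to 1.45) for *Misp3*, 0.17 (-0.26 to 0.60) for *Hspb8* and -0.17 (-0.55 to 0.22) for *Ptgfr*. The intervals of *Retreg1* and *Misp3* were the widest, as their ratios spread most within groups.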

How the data were processed

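RNA of left and right heart fields of 21 embryos was sequenced as polyadenylated, low-input libraries. Per the labels and methods, the authors trimmed adapters, removed duplicates, aligned reads to GRCm39 with STAR and deposited raw counts per Ensembl gene from featureCounts of Subread 2.0.6, with no normalization. Symbols came from GENCODE (56310 of 56953 identifiers), and 0 columns were left without a sample.

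Counts were filtered with filterByExpr at the study's limits (a minimum count of 5, a total of at least 10, large groups above 50 libraries and a proportion of 0.2), scaled by TMM and tested in edgeR 4.0.16 (R 4.3.3) by the quasi-likelihood test with Benjamini-Hochberg adjustment over all genes kept, called at an adjusted p under 0.05. DESeq2 1.42.0 was an alternative. The embryo was a block in tests between sides, as both libraries came from 1 animal. The check of this pairing gave a median correlation of residuals of 0.311 within embryos and -0.0269 between them. No pair of libraries was a copy (lowest chi-square per gene 7.36 over 861 pairs). CPM use effective library sizes, and log2 ratios per embryo a prior count of 2. Tests were checked on simulated counts first.

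The members, gene lists, markers and motifs were chosen with earlier results of these data known, and the uterine list after seeing them. Named genes are the members, list genes that were called or else up to 3 of the most abundant, and the 3 genes most like each member. Further list genes are marked where they were named after their values were seen. *Bag3*, *Hspa8*, *Dnajb1* and *Stub1* were named too, though not called. A motif and a gene of these lists are not reported here. Alternatives were DESeq2, library size alone, no filter, no block, all libraries, males alone, no covariate, another prior count (0.5) and each embryo left out. P-values measure the spread between embryos.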

Additional observations from a re-analysis of the deposited data

Results flagged for a closer look

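Of 20 groups of 5 embryos examined, 3 held a value far from the others. They are given as a description, since chance alone sets such a value apart in about 1 in 20 groups and the ratios are those that chose the members. The log2 level of *Hspb8* over both sides was 3.69 in the wild type 17_7, against 2.92 to 3.09 in the other 4 wild types. The log2 right over left of *Ptgfr* was 1.08 in the wild type 8_1, against -0.02 to 0.29 in the others, and -1.36 in the inverted mutant 18_2, against -0.79 to -0.66 in the others. The wild type 8_1 was also the one in which *Misp3* (1.23) was opposite to its group.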

How the results depend on the processing

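The members' values had 490 alternatives, of which 485 kept their direction or were untested values without a call, and 5 turned the direction of a difference that had not passed the test. These were the level of *Hspb8* in mutants with rightward looping against wild types (-0.081 without 15_5 to 0.775 without the wild type 17_7 when an embryo was left out, and 0.867 in males alone), the level of *Trabd2b* (-0.04 at the lowest) and of *Misp3* (-0.022 to 0.211) in inverted against rightward mutants when 1 embryo was left out, and the side by sex difference of *Ptgfr* (0.043 in rightward mutants alone). Of the untested ratios, *Misp3* in rightward mutants ran from -0.30 to 0.18 and in inverted mutants from -0.36 to 0.88, *Hspb8* in rightward mutants from -0.21 to 0.12 and *Retreg1* there from -0.34 to 0.05, and all others kept their sign. Without the replicate block of the embryo, counts of genes right against left were 0 in wild types, 1 in rightward mutants and 305 in inverted mutants, and *Hspb8* in rightward mutants turned to 0.12.

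Counts of all genes called moved with the method and with single embryos. In wild types 0 genes became 20 in DESeq2, 2 with no filter and 1 in a fit of all libraries. In rightward mutants 6 became 32 in DESeq2 and 1 in males alone, and 2 (such as without 1_6) to 8 (without 19_4) when an embryo was left out, moved over 1.5 times by 8 of 11 embryos. In inverted mutants 468 became 1755 in DESeq2, 942 with no filter, 53 in males alone and 141 in 1 fit of the 42 libraries, and 138 (without 32_2) to 446 (without 10_3) when an embryo was left out, with 181 without 18_2 and 222 without 4_6. For levels of rightward mutants against wild types, 7 became 17 in DESeq2 and 1 in males alone, and 1 (such as without 7_1) to 14 (without 17_7), moved over 1.5 times by 14 of 21 embryos. The causes were not tested. At about 5 CPM, counting error limits single ratios to about 0.15.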
